A study of Mus musculus with 28 samples.

Results

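The transcriptome of the mouse sciatic nerve at postnatal day (P) 60 was compared with that at P14, across all genes of the count table. At P14 the Schwann cells of the nerve are building myelin, and at P60 they keep up a finished sheath. The comparison rests on 8 of the 28 bulk RNA sequencing libraries of a timeline of 7 stages, chosen by the stage in their labels, with 4 libraries at P14 and 4 at P60. The 4 libraries of P24 were set beside them as a stage in between. All mice were wild-type C57BL/6J, untreated and not perfused. Each library held the sciatic nerves of 1 mouse, and each stage was made from 2 male and 2 female mice. Which library came from which sex is not in the labels, and sex was neither used nor inferred. The outer layers of the nerve, the epineurium and perineurium, had been stripped off by hand, so that the tissue was enriched for the endoneurium, where the axons and Schwann cells lie.

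In the peripheral nerve a myelinating Schwann cell wraps 1 stretch of 1 axon in a compact spiral of plasma membrane. This membrane is rich in cholesterol, galactolipids and long fatty acids, most of which the cell makes for itself through enzymes under the control of the SREBP factors. During postnatal growth the sheath thickens and lengthens with the limb, while Schwann cells leave the cell cycle and fibroblasts lay down the collagen of the endoneurium. In the adult, myelin lipids and proteins turn over slowly, and the same cell supports the axon for life.

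Total counts were 21730556 to 32335676 at P14 and 14499650 to 17167414 at P60, so that the P14 libraries were all deeper. Values are in CPM, that is, read counts scaled to a common library total after TMM normalization, and are listed for replicates 1 to 4 in turn. A change is the log2 fold change ± standard error, positive where P60 was higher, and a gene was called when its adjusted p was under 0.05 in edgeR's quasi-likelihood test over all genes and its fold was at least 2. The p-values measure the spread between these samples. Among genes named without it elsewhere, Cd74, Cx3cr1 and Tubb3 overlap another gene model on the same strand and Col4a1, Dbp, Kif20a, Lgi4 and Mest on the opposite strand, and reads of an overlap could not be assigned. In bulk tissue, fewer cells of a type and less RNA per cell cannot be told apart. Of 5 Schwann cell markers, 0 were called higher and 0 lower, with summed levels of 4654 to 4850 CPM at P14 and 3770 to 4326 CPM at P60. None of the 6 T and NK cell markers was abundant enough to be tested, and the 10 skeletal muscle markers summed to at most 21.0 CPM in any of the 8 libraries.

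Of 17700 genes tested, 2285 (12.9%) were called, 1257 of them higher at P60 (7.10%) and 1028 lower (5.81%). The median log2 change of all genes tested was -0.02. With library size as the only scaling the median was 0.15 and 67.3% of 2514 calls were higher, against 55.0% with TMM. Among the largest changes falls outnumbered rises. A log2 change beyond 4 was reached by 62 rises and 111 falls, and one beyond 5 by 25 rises and 38 falls. Among genes with at least 80 CPM in the higher stage, 162 rose and 129 fell. The 4 and 4 libraries did not overlap for 7256 genes (41.0%), and they did not overlap for 2046 of the called genes. Of the called genes 1987 were protein coding, 101 were long intergenic non-coding RNAs and 74 were antisense transcripts. Between P14 and P24 469 genes were called (2.65%), and between P24 and P60 1055 (5.96%). These steps share libraries with the main comparison and with each other.

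Among the rises, Etnppl (ENSMUSG00000019232, chromosome 3, 130617448 to 130637521, plus strand) stood first. It encodes an enzyme that breaks down phosphoethanolamine, a precursor of membrane phospholipids. The gene was at 0, 0.113, 0.204 and 0.0760 CPM in the P14 libraries and at 106, 115, 156 and 116 CPM at P60 (log2 10.17 ± 0.46, adjusted p 4.0e-15). With hardly any reads at P14 its fitted fold depends on the prior count, and at P24 its mean was still 0.361 CPM. C3 (ENSMUSG00000024164, chromosome 17, 57203970 to 57228136, minus strand), the central component of complement, was at 7.21, 2.66, 3.63 and 3.08 CPM at P14 and at 595, 568, 596 and 572 CPM at P60 (log2 7.14 ± 0.47, adjusted p 3.8e-12). The 4 adult libraries lay within a narrow band far above every P14 library. The other large rises included Plk5, a relative of the polo-like kinases (5.71 ± 0.33), Serpina3n, a secreted protease inhibitor from a family of close copies whose reads may be shared (5.38 ± 0.32), and Ppl, a linker of intermediate filaments to cell junctions (5.74 ± 0.70). Inmt, a methyltransferase of small amines, rose by 5.22 ± 0.52.

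Cyp2e1, a cytochrome P450 that oxidizes small molecules, and Retn, a hormone secreted by fat cells, were also among the 8 largest rises of genes that reached 10 CPM at P60 and had more than 3 reads in some P14 library (7.24 ± 0.81 and 5.29 ± 0.75). Cyp2e1 was at 0.818, 0.339, 0.653 and 0 CPM at P14 and at 24.3, 34.8, 90.4 and 119 CPM at P60. Retn was at 1.74, 0.113, 0.204 and 0.342 CPM at P14 and at 20.03, 15.96, 26.4 and 29.9 CPM at P60. Both were highest in P60 replicates 3 and 4, the libraries that also held the most adipocyte marker reads. Retn is itself 1 of the 9 adipocyte markers tested. These summed to 34.9 to 174 CPM at P14 and 292 to 822 CPM at P60, and 8 of them were called higher, beside 7.10% of all genes. The part of fat cells in these rises was not tested. With P60 replicates 3 and 4 left out, 2 adipocyte markers were called.

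The 8 largest falls among genes of at least 10 CPM belonged mostly to the cell cycle and to foetal growth. Mki67 (ENSMUSG00000031004, chromosome 7, 135689784 to 135716361, minus strand), which encodes the proliferation antigen Ki-67, went from 71.4, 55.1, 51.9 and 68.1 CPM at P14 to 2.27, 2.10, 1.06 and 2.20 CPM at P60 (log2 -5.02 ± 0.28, adjusted p 2.0e-13). Igf2 (ENSMUSG00000048583, chromosome 7, 142650766 to 142666816, minus strand), a foetal growth factor that overlaps the gene model Gm49394 on the same strand, went from 1460.0, 1724, 1571 and 1917 CPM to 38.4, 58.7, 67.2 and 78.9 CPM (log2 -4.78 ± 0.21, adjusted p 4.0e-15). Neither gene had overlapping stages, and every P60 library was at least an order of magnitude below every P14 library. The other 6 were Dlk1 (-5.13 ± 0.43), Cenpf (-5.12 ± 0.29), Top2a (-4.78 ± 0.22), Aspm (-4.73 ± 0.34), the X-linked kinase gene Nrk (-4.73 ± 0.43) and H19 (-4.66 ± 0.20). Lrrtm1, a synaptic adhesion gene named here after its values were seen, was kept out of this ranking because no P60 library held more than 2 of its reads. It had 275 to 702 reads at P14 and was at least 94.4-fold lower at P60, set against 3 counts in the shallowest P60 library.

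Among called genes without overlap between the stages, the largest gains in mean CPM were those of Fth1, Apod, Drp2, Ahnak and Gsn. Fth1, the heavy chain of the iron store ferritin, was at 1127, 1195, 1343 and 1082 CPM at P14 and 7573, 7959, 7762 and 7728 CPM at P60 (log2 2.71 ± 0.19, adjusted p 1.5e-11), although pseudogene copies may take part of its reads. Apod, a lipid carrier of the lipocalin family, was at 654, 889, 895 and 633 CPM at P14 and 8318, 6399.6, 6846 and 6437 CPM at P60 (log2 3.19 ± 0.15, adjusted p 1.0e-14). Every adult library was above every P14 library for both, and their means at P24 lay in between, at 2556 and 1924 CPM. The scaffold protein gene Ahnak rose by 1.17 ± 0.21, and Gsn, whose product severs actin filaments, by 2.30 ± 0.25. The largest losses under the same limits included 3 fibrillar collagen genes and Hmgcs1, which are described with their groups.

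**Figure D1:**
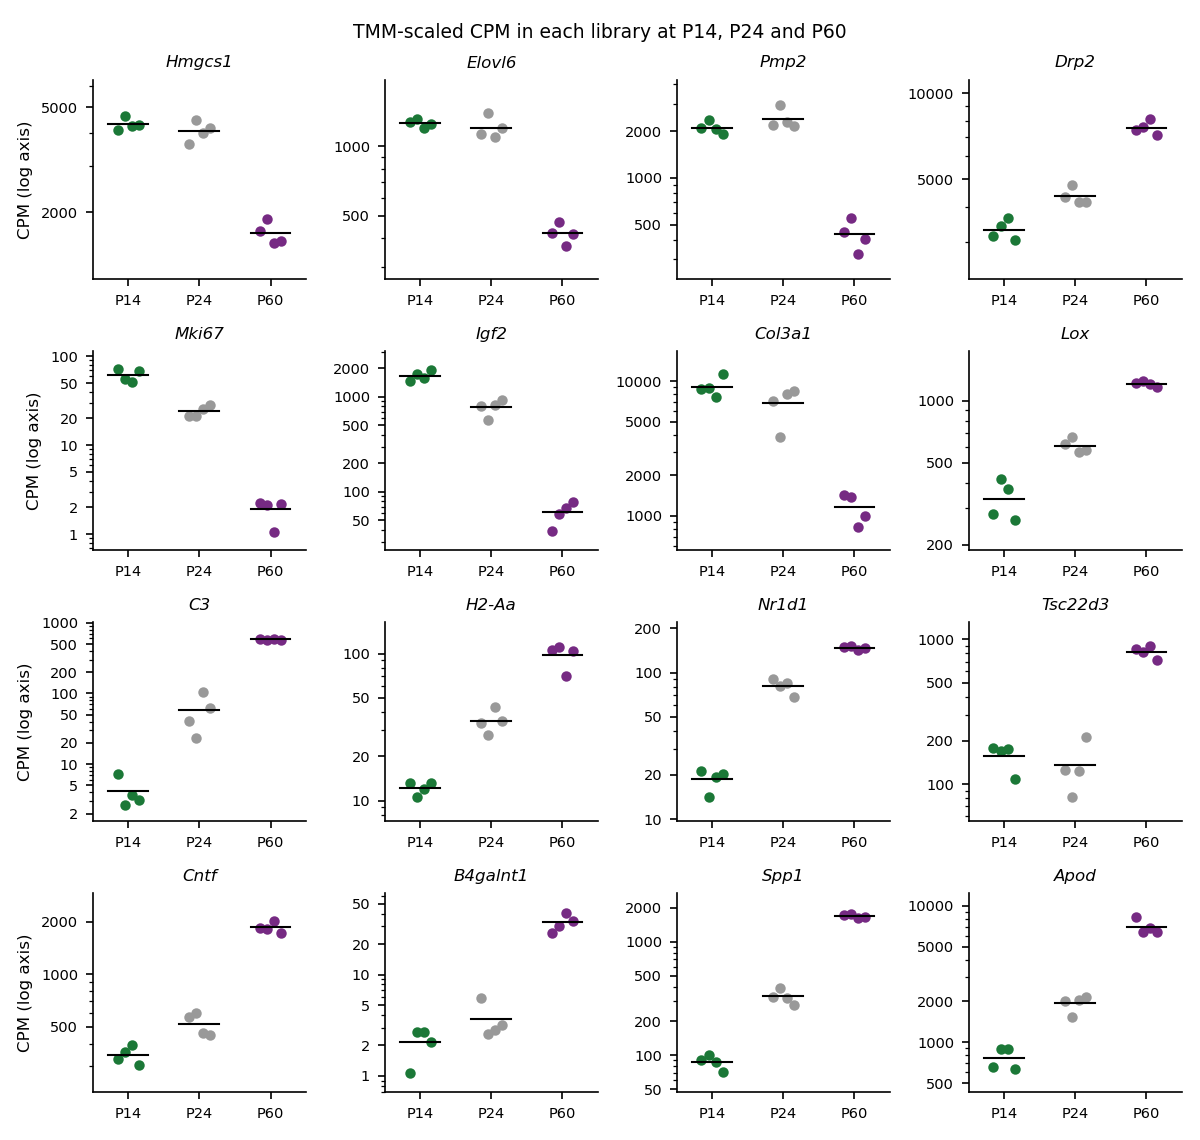
CPM of 16 genes in each library (points) with the stage mean (black line), for P14 (green), P24 (grey) and P60 (purple), on log axes. For Hmgcs1, Elovl6 and Pmp2 the P24 libraries lie near those of P14, as do those of Col3a1 except replicate 2 at 3820 CPM, and for Mki67, C3, H2-Aa and Spp1 they lie between the stages.

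Cholesterol synthesis fell along the pathway. Of 19 enzymes tested, 12 were called lower and 0 higher, beside 5.81% of all genes called lower. All 19 had a negative log2 change, with a median of -1.32 beside -0.02 for all genes. The list took 0.961 to 1.09% of all counts in the P14 libraries and 0.485 to 0.580% at P60. Hmgcs1, which makes HMG-CoA, was at 4106, 4613, 4236 and 4283 CPM at P14 and 1688, 1885, 1530.4 and 1556 CPM at P60 (log2 -1.37 ± 0.20, adjusted p 6.4e-06). Idi1, which isomerizes the isoprenoid unit, was at 158, 200.5, 166 and 185 CPM at P14 and 57.1, 67.1, 48.7 and 50.9 CPM at P60 (log2 -1.67 ± 0.27, adjusted p 2.5e-05). For both genes the lowest P14 library was above the highest P60 library. The falls ran on through the sterol steps, with Lss at -1.52 ± 0.11, Cyp51 at -1.55 ± 0.12, Nsdhl at -1.69 ± 0.11 and Tm7sf2 at -1.87 ± 0.13. Cyp51 overlaps Akap9 on the opposite strand and Tm7sf2 overlaps Vps51 on the same strand, so that their reads may be shared.

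Not every step moved as much. Sqle, the squalene epoxidase, was lower by less than 2-fold (log2 -0.96 ± 0.10, adjusted p 3.7e-08). Between P14 and P24, 0 of the 19 were called, beside 2.65% of all genes, with a median of 0.02. Between P24 and P60, 12 were called lower (3.41% of all genes), with a median of -1.29. Hmgcs1 was at a mean of 4065 CPM at P24 (against P14 log2 -0.08 ± 0.20, adjusted p 0.93, and P60 against P24 log2 -1.29 ± 0.20, adjusted p 3.7e-05). The difference between the steps was not tested.

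A promoter window of 300 bases (250 before the start of transcription and 50 after it, RefSeq, GRCm38.p6) was at hand for 14 of the 19 genes. The sterol response element of the SREBP factors was searched for as TCACNCCAC on both strands. It was found in 1 of the 14, Hmgcs1, and in 1.24% of all 32851 windows. The window of Hmgcs1 (chr13:119690101-119690400, plus strand) is shown because this gene lost the most CPM of the pathway, with the match in capitals.
Hmgcs1: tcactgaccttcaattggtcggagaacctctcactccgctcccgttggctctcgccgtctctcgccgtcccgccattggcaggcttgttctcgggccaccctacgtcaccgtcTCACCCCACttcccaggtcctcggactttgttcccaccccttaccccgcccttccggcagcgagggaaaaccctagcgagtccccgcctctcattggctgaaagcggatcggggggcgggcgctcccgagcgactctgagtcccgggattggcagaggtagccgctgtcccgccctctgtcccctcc
A match is a description of the letters and not of a bound site.

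Of 14 genes that control cholesterol or take it up 1 was called higher and 0 lower, the share of all genes called higher being 7.10%, with a median of -0.04. Srebf2, the main activator of the synthesis genes, was at 252, 287, 308 and 316 CPM at P14 and 235, 309, 275 and 295 CPM at P60 (log2 -0.06 ± 0.21, adjusted p 0.87), and these ranges overlapped. The gene called higher was Nr1h3, which encodes the oxysterol sensor LXR alpha, at 10.7, 12.04, 13.7 and 10.98 CPM at P14 and 35.5, 43.7, 40.2 and 43.1 CPM at P60 (log2 1.78 ± 0.21, adjusted p 2.9e-07).

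In fatty acid synthesis and elongation 1 of 16 was called lower and 1 higher (12.5%, near the 12.9% of all genes, with a median of -0.43), and 2 were called lower without P14 replicate 1 or 2 or without P60 replicate 1 or 2. Elovl6, which lengthens C16 fatty acids, was at 1271, 1307, 1196 and 1251 CPM at P14 and 421, 472, 371 and 419 CPM at P60 (log2 -1.58 ± 0.18, adjusted p 9.2e-08). Its stages did not overlap, and its mean at P24, 1204 CPM, lay near that at P14. Scd2, the desaturase of young neural tissue, ranged from 10058 to 10647 CPM at P14 and 5453 to 6479 at P60, a fall short of 2-fold (log2 -0.83 ± 0.09, adjusted p 3.3e-08). Me1, the malic enzyme that supplies NADPH, was the gene called higher (log2 1.38 ± 0.12, adjusted p 1.0e-09), with its highest level in P60 replicate 1. Fasn, the fatty acid synthase, was at 787, 949, 1035 and 1033 CPM at P14 and 872, 886, 747 and 686 CPM at P60, with overlapping stages (log2 -0.25 ± 0.25, adjusted p 0.49).

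Among 17 genes of sphingolipid and galactolipid metabolism 2 were called lower and 1 higher (17.6%, beside 12.9% of all genes, with a median of -0.26). The 2 called lower make the galactolipids of myelin. Ugt8a, which forms galactosylceramide, was at 3486, 3842, 3477 and 3574 CPM at P14 and 1421, 1609, 1337 and 1456 CPM at P60 (log2 -1.30 ± 0.19, adjusted p 5.1e-06). Gal3st1, which adds sulfate to make sulfatide, gave -1.07 ± 0.26 (adjusted p 0.0022), a call lost without P60 replicate 1. In the opposite direction B4galnt1, the synthase of the complex gangliosides GM2 and GD2, was at 1.07, 2.71, 2.70 and 2.16 CPM at P14 and 25.9, 30.4, 40.5 and 33.8 CPM at P60 (log2 3.91 ± 0.37, adjusted p 5.4e-09). Every P60 library of B4galnt1 exceeded every P14 library, and its P24 mean was 3.64 CPM. Fa2h, which hydroxylates the fatty acid of these lipids, was at 797 to 995 CPM at P14 and 724 to 864 at P60 and not called (log2 -0.18 ± 0.17, adjusted p 0.46).

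Of 15 genes of fatty acid oxidation 2 were called higher and 0 lower (13.3%, near the 12.9% of all genes called, with a median of -0.02), among them Pdk4, a kinase that closes pyruvate dehydrogenase (2.11 ± 0.23). The count was 1 without P14 replicate 1, without P14 replicate 2 or without P60 replicate 3. Pdk4 was at 19.1, 23.1, 24.99 and 12.95 CPM at P14 and 114, 75.6, 92.1 and 63.1 CPM at P60. Every adult library was above every P14 library, and the P24 mean, 20.6 CPM, lay within the P14 range. Of 18 glycolysis and lactate genes 1 was called lower, near the 5.81% of all genes, the lactate exporter Slc16a3 (-1.71 ± 0.48), and the median was -0.05. Of 81 nuclear genes of the respiratory chain 2 were called lower (2.47%, below the 5.81% of all genes), the muscle-type subunit genes Cox7a1 (-1.90 ± 0.24) and Cox8b (log2 -2.34 ± 0.88, adjusted p 0.047). Cox8b was at 1.02, 6.44, 9.27 and 0.152 CPM at P14 and 0.365, 0.0726, 0.808 and 2.01 CPM at P60, and its call was lost in turn without P14 replicate 2 or 3 or P60 replicate 1, 2 or 3 (-1.59, adjusted p 0.23, without P14 replicate 3). It was also lost with the replicate number as a block (-2.21, adjusted p 0.11), with library size as the only scaling, with no filter on low counts, with only the P14 and P60 libraries fitted, with DESeq2 (adjusted p 0.072) and with limma-voom (-1.02, adjusted p 0.44). Of 10 skeletal muscle markers 3 were also called lower, beside 5.81% of all genes (median -2.05). This count was 0 to 2 with any 1 of the 8 libraries left out, and the part of these markers in the falls of Cox7a1 and Cox8b was not tested. Of 80 cytosolic ribosomal protein genes 0 were called in either direction by edgeR, beside 12.9% of all genes, and the median was 0.04. The list took 1.54 to 1.71% of counts at P14 and 1.74 to 1.91% at P60.

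Of 14 myelin protein genes tested 2 were called lower and 1 higher (21.4%, beside 12.9% of all genes). The stages did not overlap for 9 that were lower, beside 22.4% of all genes, and 13 of the 14 had a negative log2 change (median -0.50). The list held 10.6 to 12.3% of counts at P14 and 8.20 to 9.65% at P60. Pmp2 (ENSMUSG00000052468, chromosome 3, 10179851 to 10183929, minus strand), a fatty acid carrier of compact myelin, was at 2096, 2337, 2052 and 1928 CPM at P14 and 449, 553, 326 and 409 CPM at P60 (log2 -2.28 ± 0.17, adjusted p 9.5e-11), and it overlaps the gene model Gm37389 on the same strand. All P60 libraries of Pmp2 were below all P14 libraries, with P60 replicate 3 the lowest, and at P24 its mean was 2384 CPM. Mag, an adhesion protein of the innermost wrap, was at 801, 858, 984 and 948 CPM at P14 and 308, 442, 379 and 372 CPM at P60 (log2 -1.26 ± 0.24, adjusted p 1.7e-04).

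Major compact myelin genes were lower by less than 2-fold. Mbp, the basic protein that holds the inner membrane faces together, was at 43959, 51398, 57223 and 53257 CPM at P14 and 24093, 33075, 26983 and 29115 CPM at P60 (log2 -0.86 ± 0.20, adjusted p 0.0014). Pmp22, a membrane protein whose dosage is tied to inherited neuropathy, was at 47899.5, 52573, 55245 and 51961 CPM at P14 and 34737, 41554, 33195 and 34557 CPM at P60 (log2 -0.53 ± 0.13, adjusted p 0.0028). Neither overlapped between the stages. Mal, a proteolipid of myelin membrane traffic, gave -0.90 ± 0.11 and the phosphodiesterase gene Cnp -0.83 ± 0.20, both with an adjusted p under 0.05, while Prx, the scaffold periaxin, had overlapping stages (log2 -0.27 ± 0.20, adjusted p 0.35). Drp2, a dystrophin relative that joins periaxin to dystroglycan at the outer membrane, was the gene called higher. It was at 3157, 3434, 3647 and 3051 CPM at P14 and 7398, 7633, 8139.5 and 7135 CPM at P60 (log2 1.19 ± 0.13, adjusted p 5.2e-08), and its P24 mean, 4353 CPM, lay between the stages.

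At the node of Ranvier and its flanks, where the sodium and potassium channels of the axon are held, 2 of 17 genes were called lower and 2 higher (23.5%, beside 12.9% of all genes, with a median of 0.03). The falls were those of Cntn1, an adhesion protein of the paranode (-1.34 ± 0.30), and Epb41l3, a membrane skeleton protein at the limit of 2-fold (-1.02 ± 0.15), not called without P14 replicate 1 or 4 or P60 replicate 2 or 4. Cadm2, an adhesion protein of the internode, was at 18.97, 16.6, 13.5 and 16.9 CPM at P14 and 100.2, 96.7, 97.7 and 82.7 CPM at P60 (log2 2.52 ± 0.29, adjusted p 1.8e-07). Scn8a, the nodal sodium channel Nav1.6, was at 8.84, 8.48, 9.52 and 10.5 CPM at P14 and 21.2, 22.5, 21.5 and 26.4 CPM at P60 (log2 1.29 ± 0.15, adjusted p 1.9e-07). Both were higher in every P60 library than in any P14 library. Nfasc, whose products hold the node and paranode together, was at 635 to 702 CPM at P14 and 607 to 709 at P60 (log2 0.03 ± 0.13, adjusted p 0.91), with overlap. Gldn, the gliomedin that gathers nodal channels, was lower by less than 2-fold (log2 -0.65 ± 0.16, adjusted p 0.0023).

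**Figure D2:**
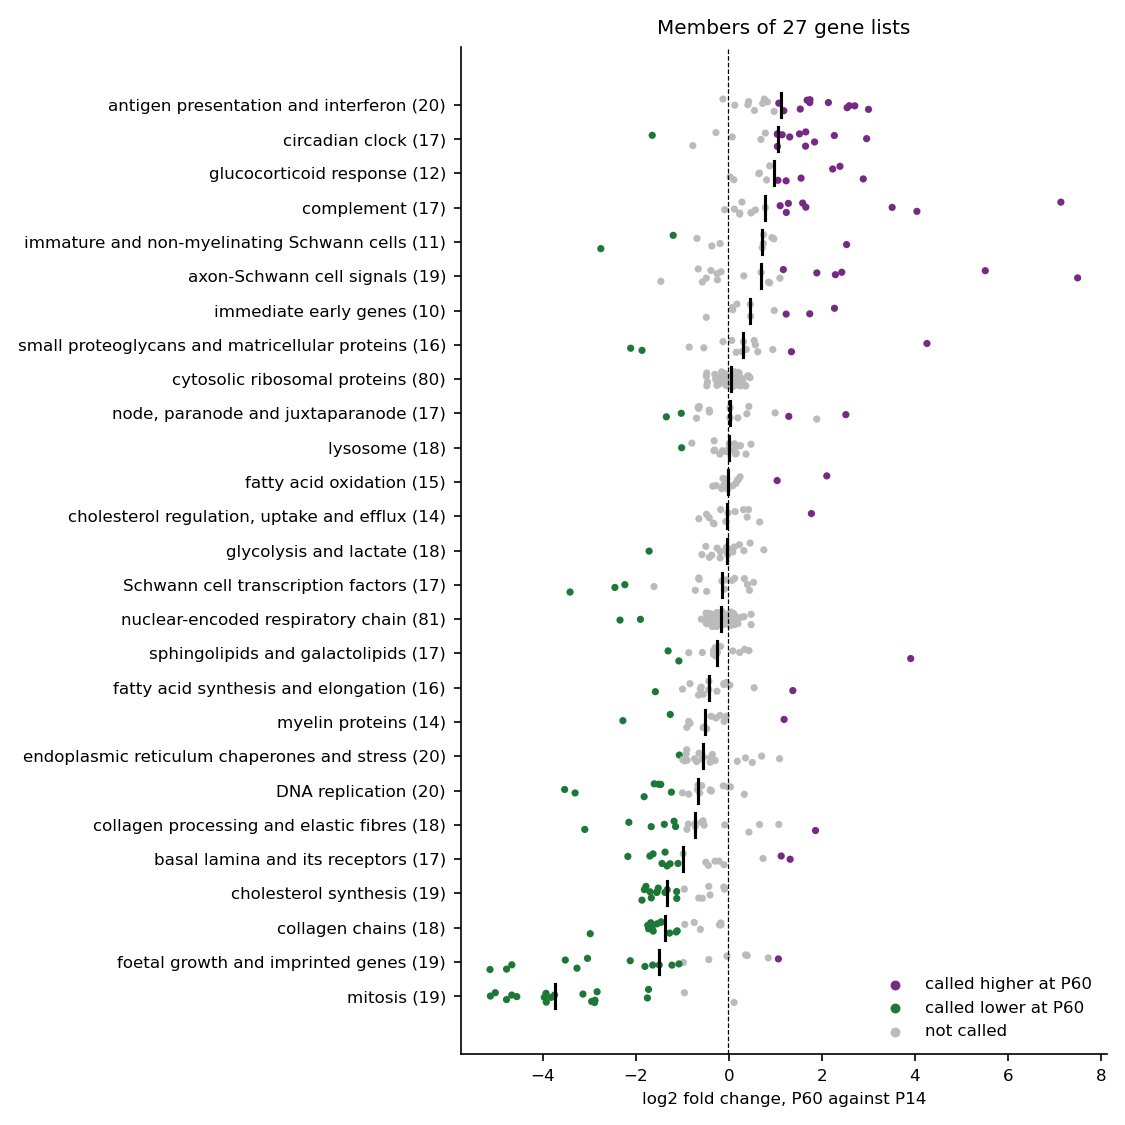
Log2 fold change of each member of 27 gene lists, P60 against P14, ordered by the list median (black bar), with the median of all genes tested as a dashed line. Mitosis is lowest with a median of -3.75, and collagen chains and cholesterol synthesis stand at -1.36 and -1.32. Antigen presentation and the circadian clock are the highest, at 1.13 and 1.05.

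Mitosis genes had the lowest median of the 27 lists drawn. Of 19 tested 17 were called lower, beside 5.81% of all genes, and 0 higher, with a median of -3.75. The libraries did not overlap for 18 that were lower, beside 22.4% of all genes. The list fell in both steps, with 15 called lower from P14 to P24 (1.14% of all genes, median -1.20) and 16 from P24 to P60 (3.41% of all genes, median -2.24). Top2a, the topoisomerase that untangles chromosomes, was at 49.3, 38.7, 39.04 and 54.01 CPM at P14 and 1.39, 1.74, 1.49 and 1.95 CPM at P60 (log2 -4.78 ± 0.22, adjusted p 4.0e-15). Cdk1, the kinase that drives entry into mitosis, was at 13.4, 9.38, 9.80 and 12.4 CPM at P14 and 0.439, 0.798, 0.746 and 0.942 CPM at P60 (log2 -3.92 ± 0.23, adjusted p 5.9e-13), and its partner Ccnb1 fell by 4.56 ± 0.25. No P60 library came near a P14 library for these genes, and at P60 Ccnb1 rested on a handful of reads. Kif20a, a kinesin of the dividing midzone, fell by 3.75 ± 0.18 and Plk1, the polo-like kinase of mitosis, fell by 1.73 ± 0.30. Erythroid markers moved the same way, with 4 of 7 called lower, beside 5.81% of all genes. They summed to 107 to 203 CPM at P14 and 21.6 to 48.4 CPM at P60 in these unperfused nerves, and which cells the mitosis transcripts came from was not tested.

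Members of the list that were not called were Cdc20 and Bub1b. Cdc20, which starts anaphase, was at 11.5, 7.74, 10.8 and 12.7 CPM at P14 and 5.26, 4.79, 6.22 and 5.78 CPM at P60 (log2 -0.95 ± 0.23, adjusted p 0.0022), and it overlaps Elovl1 on the opposite strand. Bub1b, a checkpoint kinase, was at 13.4, 8.76, 12.3 and 10.5 CPM at P14 and 10.3, 9.80, 15.2 and 13.4 CPM at P60 (log2 0.11 ± 0.16, adjusted p 0.65). Its stages overlapped, and without P60 replicate 3 the change was -0.01.

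The promoter windows of 15 of the mitosis genes were at hand. The letters TTTGAA, the core of the cell cycle element CHR, were found on either strand in 11 of the 15 and in 17.9% of all windows. The CCAAT box was found in 14 of the 15 and in 37.4% of all windows. Cdc20 and Bub1b, which were not called, held both. The windows of 2 genes are shown, with both motifs in capitals on either strand, because Mki67 and Cdk1 are the genes by which this fall is most easily read. They are chr7:135716330-135716629 (minus strand) for Mki67 and chr10:69352863-69353162 (minus strand) for Cdk1.
Mki67: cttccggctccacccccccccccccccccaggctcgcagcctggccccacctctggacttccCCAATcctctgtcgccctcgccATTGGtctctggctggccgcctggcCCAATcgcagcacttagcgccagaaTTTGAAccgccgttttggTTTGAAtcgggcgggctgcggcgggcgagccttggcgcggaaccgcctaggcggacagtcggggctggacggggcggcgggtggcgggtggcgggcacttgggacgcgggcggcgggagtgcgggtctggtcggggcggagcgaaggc
Cdk1: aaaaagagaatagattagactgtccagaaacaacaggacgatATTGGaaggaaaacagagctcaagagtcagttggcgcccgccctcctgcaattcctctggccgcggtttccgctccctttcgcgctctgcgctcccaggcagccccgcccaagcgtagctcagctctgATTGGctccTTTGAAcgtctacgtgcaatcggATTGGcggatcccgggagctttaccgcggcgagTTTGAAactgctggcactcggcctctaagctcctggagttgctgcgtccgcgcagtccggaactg

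Of 20 replication genes tested 7 were called lower and 0 higher (median -0.67), beside 5.81% of all genes called lower. Uhrf1, which copies DNA methylation at the fork, was at 9.71, 9.16, 8.62 and 13.7 CPM at P14 and 0.512, 1.09, 0.808 and 1.13 CPM at P60 (log2 -3.53 ± 0.29, adjusted p 3.4e-10). Rrm2, the subunit of ribonucleotide reductase made in S phase, fell by 3.30 ± 0.23, and Mcm2, a part of the replicative helicase, fell by 1.51 ± 0.23. Another helicase subunit, Mcm4, was not called (log2 0.04 ± 0.13, adjusted p 0.87). Pcna, the sliding clamp of the polymerases, was at 58.1, 55.6, 62.3 and 55.2 CPM at P14 and 49.05, 52.97, 55.1 and 56.1 CPM at P60, with a small overlap (log2 -0.12 ± 0.09, adjusted p 0.34).

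Foetal growth and imprinted genes fell as a group, with 12 of 19 called lower, beside 5.81% of all genes, and 1 higher (median -1.49). H19, the long non-coding RNA expressed from the maternal copy beside Igf2, was at 1119, 1086, 1123 and 1255 CPM at P14 and 46.7, 38.9, 39.9 and 55.3 CPM at P60 (log2 -4.66 ± 0.20, adjusted p 3.5e-15). Dlk1, a membrane protein of progenitor cells expressed from the paternal copy, was at 56.9, 83.8, 69.5 and 89.7 CPM at P14 and 1.02, 2.03, 2.24 and 3.14 CPM at P60 (log2 -5.13 ± 0.43, adjusted p 4.4e-10). Every P60 library was below every P14 library for both. The P24 means, 576 CPM for H19, 20.9 for Dlk1 and 775 for Igf2, lay in between. Mest (-3.51 ± 0.20) and the growth-linked zinc finger gene Plagl1 (-3.04 ± 0.40) also fell, and so did Grb10, which restrains insulin receptors (-1.64 ± 0.14), and Meg3 (-1.80 ± 0.22). Igf1r, the receptor for both insulin-like growth factors, was higher by less than 2-fold (log2 0.85 ± 0.12, adjusted p 2.0e-06). The 1 member called higher was Igf2bp1, an RNA-binding protein at 0.613 to 1.22 CPM at P14 and 1.38 to 2.80 at P60 (1.07 ± 0.30). Its call was lost without P14 replicate 2 (0.96), P14 replicate 3 (0.91) or P60 replicate 3 (0.80).

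Of the transcription factors of the Schwann cell lineage 3 of 17 were called lower and 0 higher (median -0.15), beside 5.81% of all genes called lower. Pou3f1 (Oct6), the factor of the promyelinating stage, was at 53.7, 45.7, 52.9 and 62.1 CPM at P14 and 6.29, 13.7, 11.7 and 13.8 CPM at P60 (log2 -2.23 ± 0.22, adjusted p 9.3e-09). Egr3, a zinc finger factor of the Egr family, was at 15.1, 11.8, 11.97 and 15.3 CPM at P14 and 1.68, 1.23, 1.12 and 1.07 CPM at P60 (log2 -3.41 ± 0.25, adjusted p 5.4e-11). Id2, an inhibitor of helix-loop-helix factors, fell by 2.45 ± 0.14. For all 3 the stages did not overlap and the P24 means lay between them, at 22.3, 4.43 and 14.1 CPM. The factors that hold the myelinating state were not called. Egr2 (Krox20) was at 182, 159, 186 and 198 CPM at P14 and 216, 285, 188 and 227 CPM at P60 (log2 0.34 ± 0.15, adjusted p 0.097). Sox10 was at 388, 455, 531 and 499.7 CPM at P14 and 332, 502, 472 and 489 CPM at P60 (log2 -0.06 ± 0.28, adjusted p 0.91), a change with a sign that depended on scaling and on P60 replicate 1. Jun, a factor of injured and immature cells, was lower by less than 2-fold (log2 -0.72 ± 0.13, adjusted p 1.4e-04).

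Genes of immature and non-myelinating Schwann cells split. Of 11 tested 2 were called lower and 1 higher (27.3%, beside 12.9% of all genes, with a median of 0.72). Gfra3, the receptor for artemin, fell by 2.75 ± 0.30. Ngfr, the p75 neurotrophin receptor, was at 79.3, 73.7, 84.7 and 93.8 CPM at P14 and 30.9, 47.2, 33.3 and 33.5 CPM at P60 (log2 -1.19 ± 0.15, adjusted p 5.9e-07). Gfap, the glial filament of Remak cells, was at 0.614, 1.70, 3.02 and 1.18 CPM at P14 and 11.7, 8.20, 7.40 and 10.7 CPM at P60 (log2 2.53 ± 0.38, adjusted p 7.6e-06). The adhesion genes Cdh2 (0.97 ± 0.13, adjusted p 1.5e-06) and Chl1 (0.93 ± 0.30, adjusted p 0.018) were higher by less than 2-fold. They passed that limit, so that 3 genes were called higher, with library size as the only scaling (1.15 and 1.11) and with the trend in GC content removed (1.05 and 1.02), and Cdh2 passed it without P60 replicates 3 and 4 (1.04).

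Of 19 signals between axon and Schwann cell 6 were called higher, beside 7.10% of all genes, and 0 lower (median 0.70), and 1 was called lower without P14 replicate 3. The median was 0.30 without P60 replicate 2, and 5 were called higher without P60 replicate 4. Cntf (ENSMUSG00000079415, chromosome 19, 12763660 to 12765632, minus strand), the neurotrophic cytokine stored by myelinating Schwann cells, was at 327, 357, 393 and 302 CPM at P14 and 1853, 1821, 2032 and 1717 CPM at P60 (log2 2.43 ± 0.14, adjusted p 1.8e-13). All adult libraries stood far above the P14 libraries, and most of the rise came after P24 (519.6 CPM). Cntf overlaps Zfp91 on the same strand. Lif, a cytokine of the same family, rose by 1.89 ± 0.23, and Nrg1, a neuregulin that also Schwann cells can make, was at 0.920, 0.339, 0.327 and 0.570 CPM at P14 and 2.56, 3.05, 2.49 and 2.51 CPM at P60 (log2 2.29 ± 0.46, adjusted p 3.6e-04). Shh had no read in any P14 library and 6 to 22 reads at P60, at least 5.99-fold higher when set against 3 counts in the shallowest P14 library. Bdnf, a neurotrophin, had no read at P14 and 1 to 9 reads at P60, at least 1.45-fold higher by the same measure, a call lost without P60 replicate 4. Ptch1, the receptor of the hedgehog ligands, was at 131, 105, 119 and 133 CPM at P14 and 340.5, 155, 294 and 310.0 CPM at P60 (log2 1.17 ± 0.21, adjusted p 1.0e-04). P60 replicate 2 was the lowest adult library for Ptch1, and it was also the lowest for the summed perineurial markers.

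Dhh, the hedgehog ligand of Schwann cells, was lower by less than 2-fold (log2 -0.48 ± 0.15, adjusted p 0.018). Perineurial cells respond to this ligand, and 5 of 6 perineurial markers were called higher (7.10% of all genes), among them Slc2a1, the glucose carrier of barrier cells (1.17 ± 0.22), with sums of 467 to 576 CPM at P14 and 1011 to 1448 CPM at P60. This count was 2 without P14 replicate 2, without P14 replicate 3 or without P60 replicate 1, and 3 without P60 replicate 4, and the part of unevenly stripped perineurium was not tested. Erbb3, the receptor through which axonal neuregulin reaches Schwann cells, was at 506 to 589.9 CPM at P14 and 324 to 376 at P60 (log2 -0.66 ± 0.14, adjusted p 6.7e-04), and Lgi4, a secreted ligand of radial sorting, at 249 to 293 CPM at P14 and 460.1 to 520.1 at P60 (log2 0.86 ± 0.15, adjusted p 6.8e-05). Both stayed under 2-fold.

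**Figure D3:**
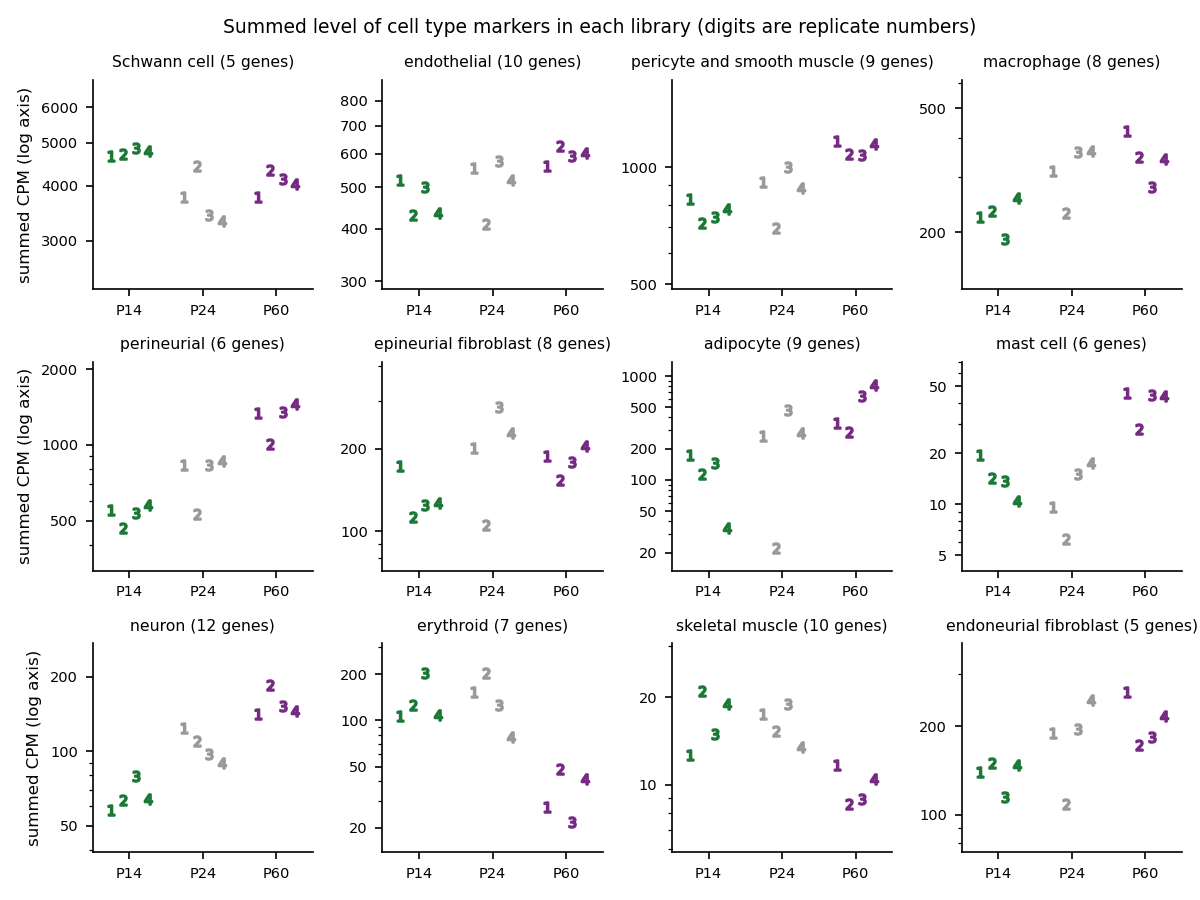
Summed CPM of the markers of 12 cell types in each P14, P24 and P60 library (digits are replicate numbers). Adipocyte markers reach their highest sums in P60 replicates 3 and 4, up to 822 CPM, and perineurial markers are lowest among the adult libraries in replicate 2, at 1011 CPM. Schwann cell markers are at 4654 to 4850 CPM at P14, 3329 to 4424 CPM at P24 and 3770 to 4326 CPM at P60, without overlap between P14 and P60.

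Collagen chains fell together. Of 18 tested 12 were called lower, beside 5.81% of all genes, and 0 higher (median -1.36), and all had a negative log2 change. They took 2.17 to 2.82% of counts at P14 and 0.829 to 0.979% at P60. Col3a1 (ENSMUSG00000026043, chromosome 1, 45311538 to 45349706, plus strand), a chain of fibrillar collagen III, was at 8735, 8833, 7623 and 11289.9 CPM at P14 and 1436, 1375, 821 and 995 CPM at P60 (log2 -2.98 ± 0.22, adjusted p 3.9e-11). Col1a2, of collagen I, was at 5347, 5883, 5359 and 7151 CPM at P14 and 2009.8, 2352, 1787 and 2003 CPM at P60 (log2 -1.54 ± 0.15, adjusted p 1.2e-08). Col1a1, its partner chain, was at 2612, 3031, 2731 and 3967 CPM at P14 and 872, 1076, 821 and 969 CPM at P60 (log2 -1.72 ± 0.27, adjusted p 1.2e-05). For all 3 every adult library was below every P14 library, and P14 replicate 4 was the highest. The sheet-forming chains of basement membrane moved less, with Col4a1 at -0.74 ± 0.19, under 2-fold, while Col15a1, which lies at its outer face, fell by 1.74 ± 0.18. Between P14 and P24, 0 of the 18 were called, beside 2.65% of all genes (median -0.15). Between P24 and P60 9 were called lower, beside 3.41% of all genes (median -1.11). Of 5 endoneurial fibroblast markers 0 were called, with a median of 0.63, and which cells the collagen reads came from was not tested.

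The processing of collagen followed in part, with 6 of 18 called lower, beside 5.81% of all genes, and 1 higher (median -0.72). Serpinh1, the chaperone of procollagen, was at 755, 829, 938 and 992 CPM at P14 and 265, 306, 249 and 286 CPM at P60 (log2 -1.67 ± 0.20, adjusted p 3.3e-07). The elastic fibre genes Fbn2 (-3.10 ± 0.24) and Eln (-2.15 ± 0.68) fell, and Eln was uneven at P14, with 292 and 314 CPM in replicates 1 and 4 against 134 and 123 CPM in replicates 2 and 3. Lox, the oxidase that cross-links collagen and elastin, went the other way, at 280.4, 416, 371 and 264 CPM at P14 and 1224, 1243, 1214 and 1169 CPM at P60 (log2 1.86 ± 0.25, adjusted p 1.8e-06). Its adult libraries were close to each other and all above the P14 libraries.

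Among 16 small proteoglycans and matricellular proteins 2 were called higher and 2 lower (25%, beside 12.9% of all genes, with a median of 0.30). Spp1, the secreted phosphoprotein osteopontin, was at 90.03, 99.5, 87.9 and 71.6 CPM at P14 and 1706, 1747, 1603 and 1634 CPM at P60 (log2 4.26 ± 0.18, adjusted p 3.5e-15). Dcn, the proteoglycan decorin that binds collagen fibrils, was at 1382, 1323, 1013 and 1383 CPM at P14 and 4139, 2588, 2873 and 3375 CPM at P60 (log2 1.35 ± 0.20, adjusted p 8.9e-06). Both were higher in all adult libraries, and Spp1 had a mean of 329 CPM at P24. Thbs2 (-2.11 ± 0.19) and Postn (-1.86 ± 0.47), matrix proteins of growing tissue, fell. Sparc, a collagen-binding protein, was at 12795 to 14129.9 CPM at P14 and 11469 to 13759 at P60 and did not separate the stages (log2 -0.12 ± 0.12, adjusted p 0.5).

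In the basal lamina, the sheet outside each Schwann cell, 8 of 17 genes were called lower, beside 5.81% of all genes, and 2 higher (median -0.98). Lama2, the alpha chain of laminin-211 that Schwann cells need to sort and wrap axons, was at 1637, 1586, 1507 and 1687 CPM at P14 and 600.2, 516, 487 and 473 CPM at P60 (log2 -1.63 ± 0.18, adjusted p 7.1e-08). Lamc1, the gamma chain shared by most laminins, was at 2099.7, 2145, 2071 and 2285 CPM at P14 and 718, 632, 658 and 649 CPM at P60 (log2 -1.70 ± 0.16, adjusted p 4.2e-09). Nid2, a linker between laminin and collagen IV that overlaps Rtraf on the opposite strand, was at 524, 486, 496 and 557 CPM at P14 and 112, 123, 109 and 115 CPM at P60 (log2 -2.17 ± 0.13, adjusted p 8.2e-13). None of the 3 overlapped between the stages, and for all of them the larger of both steps was after P24 (-0.48 and -1.15 for Lama2). Among receptors Itgb4, the beta subunit of the mature laminin receptor, rose (log2 1.32 ± 0.24, adjusted p 8.8e-05), while its partner Itga6 was lower by just under 2-fold (log2 -0.98 ± 0.14, adjusted p 3.8e-06) and Itgb1, the earlier beta subunit, by less (log2 -0.49 ± 0.16, adjusted p 0.022). Lama5, a laminin chain of vessels and perineurium, also rose (1.13 ± 0.25). Itgb4 is also 1 of the 6 perineurial markers, whose sums were higher at P60, and the part of perineurial cells was not tested.

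Of 20 endoplasmic reticulum genes 1 was called lower, near the 5.81% of all genes, Calr, a chaperone of glycoproteins (-1.06 ± 0.12), and the median was -0.56, with 14 of the 20 lower in every P60 library than in any P14 library beside 22.4% of all genes. Hspa5, the chaperone BiP, was lower by less than 2-fold (log2 -0.92 ± 0.12, adjusted p 1.9e-06). Of 18 lysosomal genes 1 was called lower, again near that share, Lipa, the acid lipase that frees cholesterol from its esters (-1.01 ± 0.09), with a median of 0.00. Both lay close to the 2-fold limit, and with library size as the only scaling they gave -0.89 and -0.83. The count of endoplasmic reticulum genes called lower was 2 without P14 replicate 1, without P14 replicate 2 or without P60 replicate 1, and 5 without both P14 replicates 1 and 2, among them Hspa5 at -1.06. The call of Calr was lost without P60 replicate 3. The lysosomal call was lost without P14 replicate 3, P60 replicate 1 or P60 replicate 3.

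Complement genes were higher, with 8 of 17 called higher and 0 lower (median 0.79), beside 7.10% of all genes called higher. Besides C3, C4b was at 45.2, 41.5, 55.4 and 42.2 CPM at P14 and 537, 519, 557 and 490.2 CPM at P60 (log2 3.51 ± 0.26, adjusted p 4.1e-11), although a near-identical neighbour makes its own share of reads uncertain. Cfd, the protease factor D that fat cells secrete, was at 21.3, 6.33, 17.7 and 0.456 CPM at P14 and 123, 106, 211 and 313 CPM at P60 (log2 4.04 ± 0.89, adjusted p 0.0013), highest in the P60 libraries with the most adipocyte markers. C3 was at 41.5, 23.5, 103 and 62.7 CPM in the P24 libraries, whose adipocyte markers summed to 267, 22.4, 470 and 281 CPM. At P60 it was at 595, 568, 596 and 572 CPM, and these markers summed to 353, 292, 642 and 822 CPM. The part of fat cells in the rise of C3 was not tested. The regulator Serping1, the C1 inhibitor, rose (1.10 ± 0.21) and was lowest among adults in P60 replicate 2, and its call was lost without P60 replicate 1 (0.96). The C1q genes, made by macrophages, were not called, with C1qa at 21.8, 30.6, 27.8 and 32.6 CPM at P14 and 35.96, 37.2, 25.1 and 34.5 CPM at P60 (log2 0.23 ± 0.29, adjusted p 0.6). Macrophage markers gave 1 call in each direction (25%, beside 12.9% of all genes), Lyz2 higher (2.05 ± 0.16) and Cx3cr1 lower (-1.66 ± 0.20), with a median of 0.04. The 8 markers summed to 224, 234, 191 and 258 CPM at P14 and 423, 349, 279 and 344 CPM at P60, without overlap, and their part in the complement changes was not tested.

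Antigen presentation and interferon genes were also higher. Of 20 tested 11 were called higher, beside 7.10% of all genes, and 0 lower (median 1.13). In 16 of the 20 every adult library was above every P14 library, beside 18.6% of all genes. H2-Aa, the alpha chain of an MHC class II molecule, was at 13.2, 10.6, 12.05 and 13.1 CPM at P14 and 106, 112, 70.2 and 105 CPM at P60 (log2 3.00 ± 0.20, adjusted p 7.9e-12). Cd74, the chain that escorts class II to the endosome, was at 18.7, 20.5, 17.97 and 23.2 CPM at P14 and 138, 150.5, 98.6 and 139 CPM at P60 (log2 2.71 ± 0.23, adjusted p 5.5e-10). In both, P60 replicate 3 was the lowest adult library and still far above P14. The summed macrophage markers were also higher at P60 without overlap, and lowest among adults in that library. Of these 8 markers 5 had a positive and 3 a negative log2 change, with a median of 0.04, and their part in these rises was not tested. H2-K1, a class I heavy chain from a family of close copies, rose by 1.54 ± 0.17, and B2m, the light chain of class I, was higher by less than 2-fold (log2 0.73 ± 0.11, adjusted p 5.7e-06). Ifit3, an interferon-induced gene, rose by 1.68 ± 0.24, with P60 replicate 3 the highest. From P14 to P24 10 of the 20 were already called higher (1.51% of all genes), and from P24 to P60 4 (2.55%), all of them class II genes or Cd74.

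Of 17 clock genes tested 11 were called higher, beside 7.10% of all genes, and 1 lower (median 1.05). Nr1d1, the repressor Rev-erb alpha, was at 21.4, 14.1, 19.5 and 20.4 CPM at P14 and 148, 151, 144 and 147 CPM at P60 (log2 2.96 ± 0.21, adjusted p 1.9e-11), and it overlaps Thra on the opposite strand. Dbp, an output factor of the clock, was at 30.5, 24.9, 31.3 and 30.1 CPM at P14 and 76.5, 94.1, 79.9 and 84.5 CPM at P60 (log2 1.52 ± 0.18, adjusted p 2.2e-07). Per2, of the negative arm, was at 11.2, 13.4, 10.5 and 8.93 CPM at P14 and 29.7, 30.2, 43.5 and 35.04 CPM at P60 (log2 1.66 ± 0.19, adjusted p 2.0e-07). None of these overlapped between the stages. The activators of the loop went the other way or were level, with Npas2 called lower (-1.65 ± 0.33) and Arntl, which encodes BMAL1, at 14.3 to 21.2 CPM at P14 and 12.2 to 21.6 at P60 (log2 -0.28 ± 0.17, adjusted p 0.23). The time of day of dissection is not given in the sources used here, so that age and hour of collection cannot be told apart for these genes.

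Of 12 glucocorticoid response genes 6 were called higher, beside 7.10% of all genes, and 0 lower (median 0.97). Tsc22d3 (ENSMUSG00000031431, chromosome X, 140539528 to 140600659, minus strand), the leucine zipper gene GILZ, was at 176, 169, 175 and 108 CPM at P14 and 856, 822, 895 and 716 CPM at P60 (log2 2.39 ± 0.21, adjusted p 1.2e-09). Fkbp5, a chaperone that dampens the receptor, was at 25.3, 36.2, 36.1 and 21.2 CPM at P14 and 81.4, 80.4, 109 and 78.05 CPM at P60 (log2 1.55 ± 0.22, adjusted p 5.0e-06). Every P60 library was above every P14 library for both. Hsd11b1, which regenerates the active steroid from its inert form and overlaps Lamb3 on the opposite strand, rose by 2.89 ± 0.30. Mt2, a metallothionein, rose by 2.23 ± 0.38, and Sgk1, a kinase induced by steroids and stress, by 1.06 ± 0.18, a call lost without P14 replicate 4 (0.95) or P60 replicate 2 (0.93). The receptor itself, Nr3c1, was at 142 to 167 CPM at P14 and 161 to 174 at P60 (log2 0.11 ± 0.19, adjusted p 0.73). From P14 to P24 0 of the 12 were called (2.65% of all genes, median -0.20), and from P24 to P60 8 were called higher (2.55% of all genes, median 1.26). The same limit on the hour of collection holds for these genes.

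Of 10 immediate early genes tested 3 were called higher, beside 7.10% of all genes, and 0 lower (median 0.47). Junb, a partner of Fos that overlaps Prdx2 on the opposite strand, rose by 2.27 ± 0.40, and Atf3, a stress factor, by 1.23 ± 0.17. Fos itself had overlapping stages (log2 -0.48 ± 0.31, adjusted p 0.27).

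Of 12 neuronal markers 6 were called higher, beside 7.10% of all genes, with sums of 57.9 to 79.2 CPM at P14 and 141 to 185 CPM at P60. The 6 included Calca, a sensory neuropeptide (2.63 ± 0.45), Snap25, of the transmitter release machinery (2.53 ± 0.37), and Nefh, the heavy neurofilament (1.93 ± 0.18). Another 4 of the 12 had a negative change and were not called. Of these the sodium channel gene Scn9a (log2 -1.47 ± 0.61, adjusted p 0.068) and the tubulin gene Tubb3 (log2 -0.45 ± 0.37, adjusted p 0.41) were lower in every P60 library than in any P14 library, as were 22.4% of all genes. Tac1, a neuropeptide precursor, gave the lowest value (log2 -3.47 ± 1.84, adjusted p 0.17). Of 6 mast cell markers 4 were called higher, beside 7.10% of all genes, with sums of 10.4 to 19.5 CPM at P14 and 27.7 to 45.3 CPM at P60. This count was 2 without P14 replicate 3 or P14 replicate 4. For endothelial, pericyte and epineurial markers the shares called lay near the 12.9% of all genes. Endothelial markers summed to 431 to 520 CPM at P14 and 560 to 627 CPM at P60, without overlap. Pericyte and smooth muscle markers summed to 719 to 827 CPM at P14 and 1079 to 1169 CPM at P60, also without overlap. The epineurial sums overlapped, at 113 to 173 CPM at P14 and 154 to 204 CPM at P60. Of 10 endothelial markers 1 was called, the tight junction gene Cldn5, higher by 1.14 ± 0.26, a call lost without P60 replicate 2. Of 9 pericyte and smooth muscle markers 1 was called, Tagln, a smooth muscle actin-binding protein, higher by 1.79 ± 0.21. Of 8 epineurial fibroblast markers 1 was called, Ly6c1, higher by 1.22 ± 0.18. Their part in the changes above was not tested.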

How the data were processed

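Bulk poly(A) RNA of mouse sciatic nerve was sequenced single-end on a HiSeq4000 from stranded TruSeq libraries. The authors aligned reads with STAR 2.6.1c to Ensembl 91 and counted them per gene with featureCounts (Rsubread), and the deposited values are these raw counts. The submitters' processing notes name GRCm38.p5 and the methods a human build name, but the identifiers are mouse. Strand and multi-mapping settings are not given in the sources used here. Symbols, coordinates and overlaps were taken from GENCODE M21 (GRCm38), which matched 41519 of 41605 identifiers (99.79%).

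All 28 libraries entered 1 fit with stage as the only term (edgeR 4.0.16 in R 4.3.3, filterByExpr, TMM), because a shared fit estimates the spread from all stages. Genes were called at a Benjamini-Hochberg adjusted p under 0.05 and a fold of at least 2. The standard error is the log2 change divided by the root of F. Total counts per library were 21730556 to 32335676 at P14 and 14499650 to 17167414 at P60, at which 3 counts amount to at most 0.170 and 0.219 CPM. These floors cover counting error only. On simulated counts of 17358 genes for this comparison, 200 of 200 genes changed by a log2 fold of 2 were recovered, with 4 false calls. Every gene was simulated with the same spread, and only genes above 1 CPM at P14 were changed, by more than the fold needed for a call. Recovery of smaller changes, or of genes with a wider spread, was therefore not measured. Replicates differed by more than sampling noise (chi-square per degree of freedom 6.41 to 47.5 in 12 pairs). Alternatives used DESeq2 1.42.0 and limma 3.58.1, other scalings and filters, and fewer libraries.

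The genes, lists and markers were chosen with earlier results of these data known. Genes named outside the lists are the extremes of log2 change, 8 in each direction, and the 5 largest gains and losses in mean CPM. Only called genes without overlap between the stages were eligible for either ranking, and for the first a gene also needed 10 CPM in its higher stage, over 3 counts somewhere in both stages, and a symbol that is no clone or antisense name. From each list about 6 members were named for their roles, and others are said to be chosen after their values were seen. Some genes of the lists are not reported here. Tables were handled in Python 3.11.15 with pandas 2.3.3, numpy 2.4.6 and matplotlib 3.10.9.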

Additional observations from a re-analysis of the deposited data

Results flagged for a closer look

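In each stage of 4 libraries, a value was marked when the highest or lowest library stood off from the other 3 by more than 0.829 of the whole range (Dixon's 95% limit). Chance marks about 1 in 20 such groups, and 22 of 406 tested were marked, in no single library. Their causes were not tested.

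At P14, Retn was at 1.74 CPM in replicate 1 against 0.113 to 0.342 in the others. Replicate 2 held 85.5 CPM of Trf against 71.1 to 72.6, and 54.8 CPM of Cdh2 against 58.1 to 58.6. Dcn was at 1013 CPM in replicate 3 against 1323 to 1383, and Tsc22d3 at 108 CPM in replicate 4 against 169 to 176. Among shares of counts at P14, the clock list was at 0.0609% in replicate 1 and the 10 most abundant genes at 22.2%, below 23.6 to 23.8% in the others. Replicate 3 had 0.557% of respiratory chain reads against 0.4996 to 0.506%, and 0.0160% of haemoglobin reads against 0.00862 to 0.00988%.

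At P60, replicate 3 was lowest for Mki67 at 1.06 CPM against 2.10 to 2.27 and for H2-Aa at 70.2 CPM against 105 to 112. It was highest for Fkbp5 at 109 CPM against 78.0 to 81.4, for Calca at 5.66 CPM against 2.70 to 3.14 and for Mcm2 at 4.17 CPM against 3.64 to 3.73. Without it the directions of Mki67 and H2-Aa held. Replicate 1 was highest for Epb41l3 at 46.3 CPM, for Id2 at 9.43 CPM and for the endoplasmic reticulum list at 0.271% of counts, and lowest for Nfasc at 607 CPM against 698 to 709. Replicate 2 was highest for Ngfr at 47.2 CPM against 30.9 to 33.5 and for Nrg1 at 3.05 CPM against 2.49 to 2.56. It was lowest for mast cell markers, at 0.00247% of counts against 0.00407 to 0.00428%. The same library held 0.572% of its counts on Gm42418, a gene model that overlaps ribosomal RNA, against 0.189 to 0.234%.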

How the results depend on the processing

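Counts of called genes stayed within 1.5 times 2285 (1257 higher, 1028 lower) in all alternatives but 1. With no fold minimum 5296 genes passed, 2519 higher and 2777 lower. Other scalings, filters and tools gave 1757 to 2644 calls, and leaving out 1 library 2111 to 2334 (1123 to 1299 higher, 970 to 1035 lower). Thinning to one depth gave 2176 calls, leaving out P14 replicates 1 and 2, with the most Gm42418 reads, 2022, and leaving out P60 replicates 3 and 4 1826. These last 3 were chosen after the data were seen.

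With the replicate number as a block 2280 genes were called, 1252 higher and 1028 lower. Same-numbered P14 and P60 libraries correlated by 0.194, 0.110, 0.090 and 0.053 in their deviations from the stage means, each highest for its own number, which hints at a pairing that the labels do not state. The numbers were not taken to pair the libraries.

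Of 158 genes named, 123 were called, and 110 of these stayed called in each alternative in which they were tested, 23 for all but Shh, which was tested in 20. The other 13 were Bdnf, Calr, Cldn5, Cox8b, Eln, Epb41l3, Gal3st1, Igf2bp1, Lipa, Postn, Serping1, Sgk1 and Slc16a3. The sign turned only for genes that were not called. With library size as the only scaling Sox10 was at 0.12, Srebf2 at 0.11, Pcna at 0.062, Sparc at 0.055 and Fa2h at 5.3e-05. With 1 library left out, Sox10 ranged from -0.15 to 0.055, Srebf2 from -0.13 to 0.0064, Bub1b from -0.015 to 0.20 and Nfasc from -0.0014 to 0.075. Without P60 replicates 3 and 4 Bub1b was at -0.17, Mcm4 at -0.069 and Nfasc at -0.042. The same setting left 2 of 8 adipocyte, 1 of 4 mast cell and 0 of 4 erythroid calls. The causes were not tested. At 3 counts a gene reached at most 0.219 CPM at P60, so that changes of genes below this level were not detectable.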

Other observations

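The genes of this part were chosen after their values were seen, and their changes are descriptions. A pair of genes of retinoic acid metabolism rose. Aldh1a1, which makes retinoic acid, was at 24.5, 23.8, 21.6 and 18.7 CPM at P14 and 352, 264, 354 and 268 CPM at P60 (log2 3.80 ± 0.20, adjusted p 7.1e-14). Cyp26b1, which breaks it down, was at 2.76, 2.94, 1.55 and 2.35 CPM at P14 and 33.2, 16.3, 24.7 and 30.3 CPM at P60 (log2 3.45 ± 0.26, adjusted p 5.0e-11). The adult libraries stood far above the P14 libraries for both enzymes, with no overlap.

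Trf, the iron carrier transferrin, was at 72.3, 85.5, 72.6 and 71.1 CPM at P14 and 194, 211, 169.6 and 219 CPM at P60 (log2 1.40 ± 0.18, adjusted p 6.0e-07), and Cp, the ferroxidase ceruloplasmin, rose by 1.20 ± 0.21. Slc40a1, which encodes the iron exporter ferroportin, was at 6.34, 5.03, 5.84 and 4.41 CPM at P14 and 0.731, 0.943, 0.311 and 1.70 CPM at P60 (log2 -2.54 ± 0.32, adjusted p 6.7e-07), lower in every adult library. Among membrane proteins of glia, the potassium channel gene Kcnj10 was at 105, 90.5, 96.1 and 115 CPM at P14 and 5.56, 4.86, 5.41 and 5.53 CPM at P60 (log2 -4.25 ± 0.16, adjusted p 6.7e-16), and Ednrb, an endothelin receptor, was at 153, 125, 122 and 154 CPM at P14 and 11.99, 15.4, 8.77 and 13.2 CPM at P60 (log2 -3.49 ± 0.18, adjusted p 5.5e-14). Neither overlapped between the stages. The paralogous histone H3K27 methyltransferases went in opposite directions. Ezh2, the form of dividing cells, was at 28.9, 29.95, 29.4 and 29.1 CPM at P14 and 13.1, 11.4, 12.1 and 11.1 CPM at P60 (log2 -1.30 ± 0.15, adjusted p 1.7e-07), and Ezh1, the form of resting cells, was at 61.04, 59.7, 61.96 and 55.4 CPM at P14 and 142, 131, 138 and 137 CPM at P60 (log2 1.20 ± 0.10, adjusted p 2.8e-10).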
